A study of Mus musculus with 16 samples.

Results

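Long H3K36me3 domains were stretches of at least 20 kb under trimethylated lysine 36 of histone H3 in murine mesenchymal stem cell (MSC) lines. Members were chosen by width alone, in the peak lists against whole-cell extract (the sheared input DNA): they were found by merging the overlapping or touching H3K36me3 peaks of 4 ChIP-seq libraries on chromosomes 1 to 19 and keeping the merged regions of 20 kb or more. This left 1707 domains of 38647 merged regions, or 4.42% of the regions and 28.4% of their length. The cells were immortalized monoclonal MSC lines of strain C57BL/6, cultured adult stromal cells. Lines with floxed, intact Dicer (Dicer f/f, called WT) were set beside lines that had lost it (Dicer -/-, called KO). Dicer is the ribonuclease that cuts microRNA precursors. Each mark had 2 libraries per genotype, and the labels do not say whether these came from separate cultures or clones, so the spread given below may be technical. Lines grown from single cells can also differ by clone, which cannot be told apart from genotype here. No expression was analysed here, so the cell type was not checked against its markers. All positions are on mm9, and genes are not named because no annotation of that build was used.

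H3K36me3 is laid down by SETD2, an enzyme that travels with elongating RNA polymerase II, and it therefore lies over the bodies of transcribed genes. H3K4me3 marks the promoters at which such transcription starts. A gene body under H3K36me3 typically begins downstream of an H3K4me3 peak, and the marks overlap little. H3K27me3, the mark of Polycomb repressive complex 2, lies over silenced genes.

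The domains ranged from 20004 to 107906 bp, with a median of 27.5 kb and quartiles of 23.0 and 35.9 kb. Together they spanned 53.1 Mb. The number fell quickly with width: 675 domains reached 30 kb, 288 reached 40 kb, 114 reached 50 kb and 7 reached 80 kb. The threshold cut through a continuous range. The narrowest member, chr5:13477860-13497863, measured 20004 bp, and the widest region left out, chr19:37029705-37049690, measured 19986 bp. Long domains made up 6.81% of the H3K36me3 regions of chromosome 19 (75 of 1102) and 6.18% of those of chromosome 3 (121 of 1957). They were scarcest on chromosome 7, at 2.37% (51 of 2154), followed by chromosomes 13 and 12 at 2.43% and 2.63%. These shares are a description, since width chose the members.

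The 4 libraries contributed unequally to the domains. KO replicate 1 listed 86.5 Mb of H3K36me3, KO replicate 2 108.5 Mb, WT replicate 1 105.9 Mb and WT replicate 2 172.9 Mb. Single peaks of 20 kb or more numbered 186, 430, 330 and 1425 in the same order. WT replicate 2 thus listed several times as many as any other library. Of the 1707 domains, 921 held a 20 kb peak in WT replicate 2 and in no other library, 87 held one in all 4 libraries, and 220 reached 20 kb only by joining shorter peaks of different libraries. Merging without WT replicate 2 left 837 domains, against 1664, 1640 and 1605 without KO replicate 1, KO replicate 2 and WT replicate 1. Of the original domains, 48.2% still reached 20 kb without WT replicate 2. Which regions count as long therefore rests largely on WT replicate 2, and read depth was unknown.

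The covered share is the percent of a domain's width under the peaks of 1 library. Its median was 75.7% in KO replicate 1, 86.6% in KO replicate 2, 86.5% in WT replicate 1 and 100% in WT replicate 2. KO replicate 2 and WT replicate 1 were nearly level, KO replicate 1 stood below both and WT replicate 2 above both. The mean covered share was 73.2% ± 8.72 in KO and 87.1% ± 10.9 in WT (SD of library means, n = 2 each). The difference of -13.9 percentage points came to -1.63 without WT replicate 2, -8.10 without KO replicate 1, -21.0 without KO replicate 2 and -21.7 without WT replicate 1. It is given without a test, because these peaks made the domains. Both WT libraries lay above both KO libraries in 748 domains, or 43.8%, and both KO libraries above both WT libraries in 23. Over all H3K36me3 regions these patterns took 22.4% and 2.06%, and nothing is read from them here. Both replicate 2 libraries lay above both replicate 1 libraries in 661 domains, or 38.7%, and the reverse held in 18. Over all regions these took 23.2% and 0.937%.

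**Figure D1:**
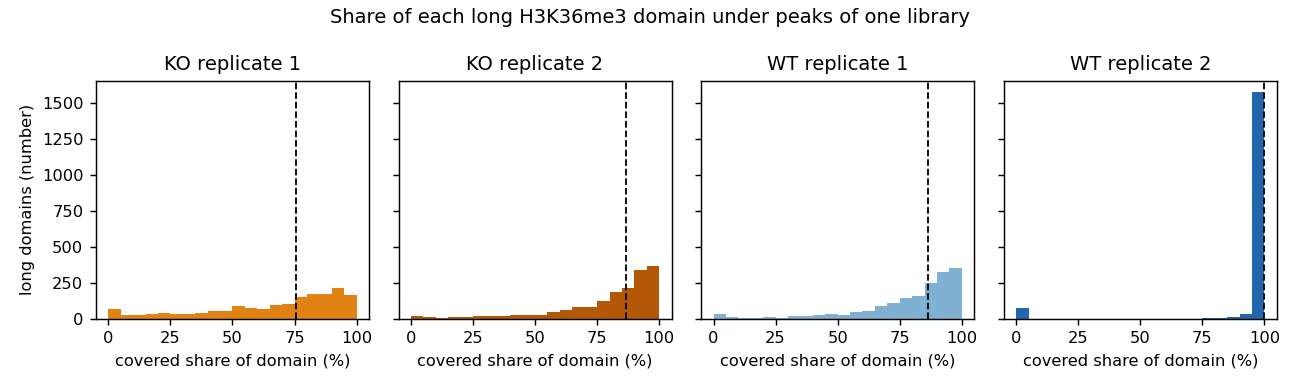
Histograms of the covered share of each of the 1707 long domains (x axis, percent of the domain's width under peaks of 1 library; y axis, number of domains), a panel for each H3K36me3 library, with dashed lines at the medians of 75.7%, 86.6%, 86.5% and 100%. In WT replicate 2 most domains were nearly full and 70 were empty, while the other libraries spread over the whole range.

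Most domains were recognised by every library. At least 50% of the width was covered in all 4 libraries in 1157 domains (67.8%), in 3 libraries in 345, in 2 in 145 and in 1 in 60. Among the 2913 H3K36me3 regions of 10 to under 20 kb, the width class next to the members, 51.3% were at least 50% covered in all 4 libraries. The largest group short of full agreement, 214 domains, was missing KO replicate 1 alone, and 88 domains (5.16%) were at least 50% covered in both WT libraries and in neither KO library. The reverse, both KO libraries and neither WT library, occurred in 4 domains (0.234%). Over all H3K36me3 regions the shares were 8.05% and 0.950%. By length, 55.9% of the domains' bases were listed in 4 libraries, 21.2% in 3, 13.4% in 2 and 9.50% in 1. Bases listed only in WT replicate 2 made up 8.59% of the length, against 0.171% to 0.504% for each other library.

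Gaps are stretches of a domain that a library did not list, and they are internal where listed stretches of the same library lie on both sides. KO replicate 1 broke a listed domain into a median of 5 stretches, KO replicate 2 into 4, WT replicate 1 into 5 and WT replicate 2 into 1. Internal gaps numbered 8257, 6092, 7444 and 639, with medians of 417, 428.5, 335 and 146 bp. Most were short: 54.2%, 53.7%, 60.5% and 85.1% of them were under 500 bp. Few were wide, with 274, 129, 96 and 1 gaps of 5 kb or more, the widest being 41667 bp in KO replicate 1. The domain was free of internal gaps in 90, 211, 147 and 1245 cases, those listed as 1 stretch of any length. It was fully covered in 5, 7, 11 and 868. Thus WT replicate 2 alone listed most of the domains as unbroken peaks.

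Internal gaps took 16.4% of the domain length in KO replicate 1, 10.8% in KO replicate 2, 10.5% in WT replicate 1 and 0.348% in WT replicate 2. Terminal gaps, at the edges of a domain, took 12.5%, 7.91%, 7.58% and 0.697%. WT replicate 2 listed 96.6% of the internal gap length of KO replicate 1, 97.3% of that of KO replicate 2 and 97.4% of that of WT replicate 1. Gaps were shared in part among the other libraries. KO replicate 1 listed 27.6% of the gap length of KO replicate 2 and 31.3% of that of WT replicate 1, both far below its covered share of whole domains.

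**Figure D2:**
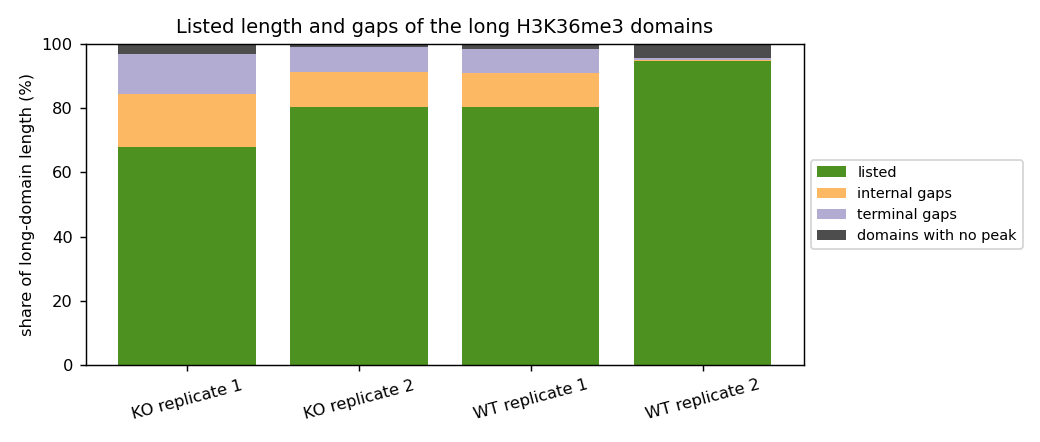
Stacked bars of the total length of the long domains (y axis, percent, from 0 to 100) in each H3K36me3 library, divided into listed length, internal gaps, terminal gaps and domains with no peak. Internal gaps took 16.4%, 10.8%, 10.5% and 0.348% of the length from left to right, and domains with no peak took more in WT replicate 2 (4.30%) than in any other library.

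Internal gaps held little H3K4me3, and terminal gaps held more. The share of internal gap length under H3K4me3 of the same genotype and number was 0.179% in KO replicate 1, 1.22% in KO replicate 2, 0.167% in WT replicate 1 and 0.428% in WT replicate 2. In listed stretches it was 0.458%, 1.21%, 0.674% and 1.58%. Internal gaps were thus lower in 3 of 4 libraries and level in KO replicate 2. Listed stretches can reach the ends of a domain and internal gaps cannot, so the comparison was not matched for position. The mean difference was -0.483 ± 0.493 percentage points (SD, n = 4, exact two-sided sign-flip permutation test, p = 0.25), so it did not exceed the spread between libraries. It turned to 0.0699 when the domains were built without WT replicate 2. Terminal gaps held more H3K4me3 than internal gaps or listed stretches in every library, at 3.33%, 7.82%, 4.02% and 5.72% of their length.

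The ends of long domains were rich in H3K4me3, and their interiors almost bare of it. An end was counted when an H3K4me3 peak lay within 5 kb on either side. The H3K4me3 list of KO replicate 1 marked 31.8% of the 3414 ends, that of KO replicate 2 36.4%, that of WT replicate 1 30.3% and that of WT replicate 2 34.0%. Both replicate 2 lists marked more ends than both replicate 1 lists, and the genotypes overlapped. The means were 34.1% ± 3.27 in KO and 32.1% ± 2.63 in WT, a difference of 2.01 percentage points (SD, n = 2 each, exact two-sided permutation test, p = 0.667, where the smallest possible is 0.333). It turned to -0.308 without the H3K4me3 library KO replicate 2.

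Ends of the 10 to 20 kb regions carried H3K4me3 less often, at 27.8%, 32.2%, 25.9% and 29.9% in the same order. Long domains were higher in all 4 libraries, by 3.99, 4.20, 4.39 and 4.06 percentage points. The mean difference was 4.16 ± 0.178 points (SD, n = 4), larger than its spread between libraries. All 4 lists were read at the same ends, so this spread does not measure variation between regions. The exact two-sided sign-flip permutation test gave p = 0.125, the smallest value that 4 libraries allow, so it could not pass 0.05. The difference stayed between 4.08 and 4.74 when any H3K36me3 or H3K4me3 library was left out.

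Along the ends, H3K4me3 peaked just outside the domain. In bins of 500 bp, the largest share of bases under H3K4me3 lay 1250 bp outside the end in all 4 libraries, at 20.3%, 24.5%, 19.3% and 23.7%. It fell to 0.207%, 0.594%, 0.278% and 0.504% at 4750 bp inside, while 5.58%, 8.28%, 4.78% and 7.47% remained at 9750 bp outside. The 10 to 20 kb regions had the same shape with lower maxima in every library, up to 20.5%. The first 500 bp inside the end still held 9.56%, 16.5%, 9.66% and 15.4%, and 637 domains (37.3%) overlapped H3K4me3. H3K4me3 thus lay mostly across and just outside the edges, with little deep within the domains.

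**Figure D3:**
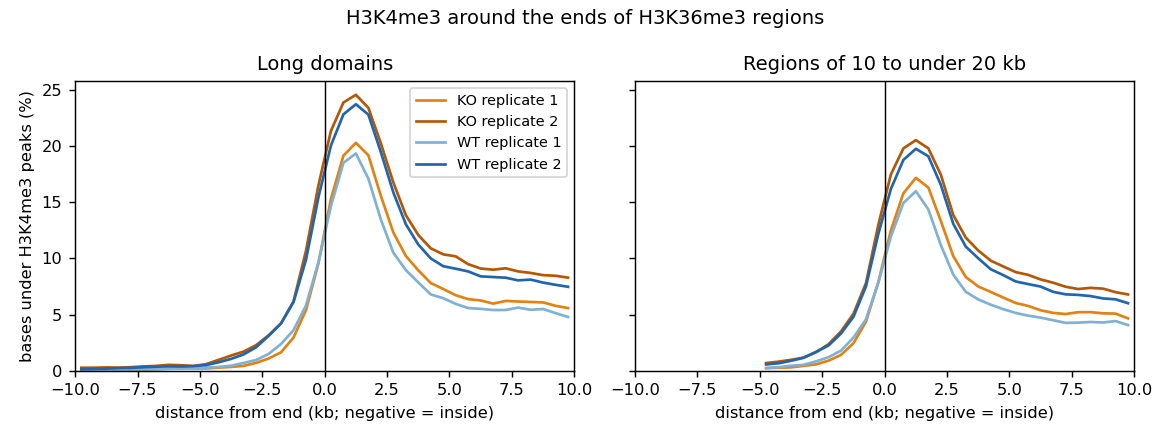
Percent of bases under H3K4me3 peaks (y axis) against distance from the end of an H3K36me3 region (x axis, kb, negative inside), averaged over both ends of all long domains (left) and of all regions of 10 to under 20 kb (right), a line for each H3K4me3 library. All 4 lines peak 1250 bp outside the end, between 19.3% and 24.5% for long domains, and drop to under 1% at 4750 bp inside.

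Over the 4 H3K4me3 lists together, 1272 of 3414 ends (37.3%) carried a peak within 5 kb. The peak spanned the end at 683 of them, lay outside at 573 with a median distance of 1630 bp, and lay inside at only 16. H3K4me3 was found at 1 end of 782 domains (45.8%), at both ends of 245 (14.4%) and at neither end of 680 (39.8%). Among the 10 to 20 kb regions the shares were 41.1%, 12.4% and 46.5%. A gene body with its promoter at 1 side would show a single marked end, but no gene was assigned to any domain. Single marked ends would also arise if the ends of a domain were marked independently of each other. Whether the counts differ from such independent marking was not tested, so nothing about promoters is read from the counts. The lower-coordinate end was the marked one in 398 of the 782 domains and the higher-coordinate end in 384. The nearest H3K4me3 to the unmarked end of these domains was a median of 22.2 kb away.

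In 3 of the 4 libraries, domains with H3K4me3 at an end were more fully listed than those without. The median covered share in KO replicate 1 was 83.0% with both ends marked, 79.3% with 1 and 65.6% with none. In KO replicate 2 the medians were 90.3%, 88.8% and 82.0%, and in WT replicate 1 92.0%, 87.7% and 82.1%. In WT replicate 2 they were practically level, at 100%, 100% and 99.96%. Median widths hardly differed, at 28.1, 27.6 and 27.1 kb. Domains with neither end marked were also more often without any peak in some library, at 11.6% against 5.31% and 5.63%. These are descriptions over domains, which are not replicates.

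Unmarked ends often faced another stretch of H3K36me3. Of the 2142 ends without H3K4me3 within 5 kb, 1020 (47.6%) had another H3K36me3 region within 1 kb, and the median distance to the next region was 1136 bp. Of the 1272 marked ends 201 (15.8%) had one, and the median was 8807 bp. In all, 972 domains (56.9%) had another region within 1 kb on at least 1 side, against 62.9% of the 10 to 20 kb regions. Counted by end, the shares were 35.8% and 40.2%. There were 72 pairs of long domains within 1 kb of each other. Many domains, like many of the 10 to 20 kb regions, were thus parts of longer runs. With peaks up to 500 bp apart merged, 2214 domains reached 20 kb and the widest measured 125.3 kb.

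In domains with a single marked end, H3K36me3 could be followed from the H3K4me3 end to the other. Each domain was cut into 20 equal bins. Cover in the first bin was 41.5% in KO replicate 1, 53.7% in KO replicate 2, 54.8% in WT replicate 1 and 94.0% in WT replicate 2. It rose to 77.3%, 87.3%, 87.7% and 97.2% just before the middle and fell to 34.4%, 50.5%, 46.8% and 93.3% in the last bin. The bin at the unmarked end was thus the lowest in every library, though the loss at the H3K4me3 end was nearly as deep. Terminal gaps averaged 1758 bp at the H3K4me3 end and 2009 bp at the other in KO replicate 1, 1165 and 1223 bp in KO replicate 2, 1086 and 1326 bp in WT replicate 1, and 55.0 and 111 bp in WT replicate 2. The edges come from merging these lists, so the profile is a description.

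**Figure D4:**
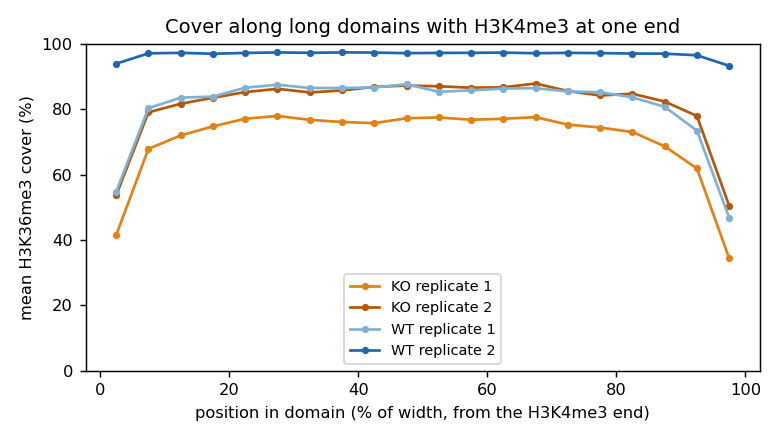
Mean H3K36me3 cover (y axis, percent) in 20 equal bins along the 782 long domains with H3K4me3 at 1 end (x axis, percent of the width from that end), a line for each library. Cover was lowest in the last bin, at 34.4%, 50.5%, 46.8% and 93.3%, and the first bin was the next lowest, at 41.5%, 53.7%, 54.8% and 94.0%.

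H3K4me3 seldom lay deep inside a domain. Only 42 domains (2.46%) held an H3K4me3 region more than 5 kb from both ends, and none held more than 1. The first of them in genome order, chr1:36224497-36261095, had 732 bp of H3K4me3 in KO replicate 2 and 0 bp in the other libraries. At the opposite extreme, 281 domains (16.5%) had no H3K4me3 inside or within 20 kb of an end, against 23.2% of the 10 to 20 kb regions. The widest of these, chr2:24645379-24722186, spanned 76.8 kb and was covered over 75.1%, 74.7%, 92.2% and 99.7% in KO replicates 1 and 2 and WT replicates 1 and 2. The next, chr19:3452972-3528935, chr3:27339984-27415747, chr1:84718579-84793637 and chr7:80571474-80641840, measured 76.0, 75.8, 75.1 and 70.4 kb.

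Few domains met an H3K27me3 peak. The share over all H3K36me3 regions is not given, so this is not read as particular to long domains. H3K27me3 peaks of any library touched 3 of the 1707 domains (0.176%) and 1 of the 10 to 20 kb regions. They covered 0%, 0.00202%, 0.00106% and 0.00362% of the domain length in KO replicates 1 and 2 and WT replicates 1 and 2. KO and WT differed by -0.00133 percentage points (n = 2 each, exact two-sided permutation test, p = 0.667). Even with 5 kb added on both sides, 3, 44, 8 and 51 domains met H3K27me3. The median distance from an end to H3K27me3 was 107.7 and 105.7 kb in the replicate 2 libraries and 1857 and 436.1 kb in the shorter lists of replicate 1.

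Few of the H3K4me3 regions at the ends held difference peaks in both replicates of a genotype. Each library also had a difference list, whose control the labels leave unnamed and which was read as peaks against the other genotype. KO-higher means a peak in the difference lists of both KO replicates, and WT-higher is the same for WT. Of 1320 H3K4me3 regions within 5 kb of an end, 42 (3.18%) were KO-higher, against 11.0% of all H3K4me3 regions. WT-higher ones numbered 4 (0.303%), against 1.05%. At the ends of the 10 to 20 kb regions, 80 of 1973 H3K4me3 regions (4.05%) were KO-higher and 11 (0.558%) WT-higher. These regions were also wider and more widely shared: their median width was 3212 bp against 1849 bp over all, and 80.2% were listed in all 4 libraries against 43.8%. The part of width and listing in the low counts was not tested. The KO-higher count at long-domain ends was 14 with scores of at least 160, a setting for which the share over all H3K4me3 regions is not given.

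Few domains held H3K36me3 difference peaks in both replicates of a genotype. Of 1707 domains, 1410 (82.6%) held no difference peak of any library, near the 82.4% of the 10 to 20 kb regions. KO-higher calls in both replicates numbered 5 (0.293%), against 0.688% of all H3K36me3 regions, and WT-higher calls 10 (0.586%), against 1.22%. Among the 10 to 20 kb regions the shares were 0.481% and 1.41%. The libraries differed widely. WT replicate 1 had difference peaks in 196 domains (11.5%, against 5.27% of all regions) and WT replicate 2 in 17 (0.996%, against 8.50%). KO replicate 1 had them in 89 (5.21%, against 4.35%) and KO replicate 2 in 11 (0.644%, against 2.37%). WT replicate 2, which listed most domains as unbroken peaks, thus had few of them in its difference list. Where present, difference peaks covered a median of 18.4% to 36.8% of the domain. The domains were built from the same libraries, so nothing is read from these shares. Raising the score minimum to 160 left 0 KO-higher domains and 4 WT-higher ones of 1646. Merging peaks up to 500 bp apart gave 12 and 65 of 2214. Without WT replicate 2 in the merging they were 3 and 0 of 837. They were 3 and 9 of 1640 without KO replicate 2, and 5 and 4 of 1605 without WT replicate 1. The shares over all regions at these settings are not given.

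The 5 KO-higher domains differed in how much of them WT listed. At chr12:31957014-31977248 the covered share was 95.7% and 86.4% in KO against 8.70% and 29.1% in WT, and an H3K4me3 peak spanned its lower end. The KO difference peaks covered 19372 and 14987 bp of this 20.2 kb domain. The widest, chr18:89143317-89192021, was covered over 96.6% and 99.8% in KO and over 41.0% and 83.2% in WT, without overlap, and an H3K4me3 peak lay 443 bp outside its lower end. KO difference peaks took 35448 and 9164 bp of its 48.7 kb. In chr7:150739998-150779170, chr1:36199320-36224381 and chr5:145877523-145898350 the WT libraries listed 82.7% to 100% and the KO libraries 85.5% to 98.1%, so the genotypes overlapped in these 3 domains.

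The widest WT-higher domains were mostly listed in part in KO. chr10:127545502-127588834 spanned 43.3 kb and was covered over 26.1% and 60.3% in KO and 85.8% and 96.6% in WT. chr19:34293809-34328907 stood at 6.97% and 39.3% in KO and 48.4% and 99.9% in WT, with an H3K4me3 peak across its upper end. chr9:107710202-107736383 stood at 16.4% and 25.7% in KO and 76.9% and 99.4% in WT. KO listed 7.60% and 8.72% of chr9:70325951-70350299, and WT 54.2% and 99.6%. At chr3:54166307-54196047 neither KO library had a peak, WT replicate 1 listed 6.67% and WT replicate 2 100%. In each of these 5 domains both WT libraries exceeded both KO libraries, and WT replicate 2 was the highest. H3K4me3 regions at the ends of all 10 WT-higher domains numbered 9, of which 3 were WT-higher and 0 KO-higher. At the ends of the KO-higher domains 1 of 7 (14.3%) was KO-higher and 0 WT-higher. Of the 1320 H3K4me3 regions at all long-domain ends, 3.18% were KO-higher and 0.303% WT-higher. Over all H3K4me3 regions the shares were 11.0% and 1.05%. With only 9 and 7 regions, nothing is read from these counts.

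The largest WT excess in covered share was at chr18:58055575-58076227, with 0% and 12.4% in KO and 79.7% and 100% in WT. chr19:28722111-28743187, chr12:71986033-72006961, chr13:55390521-55417025 and chr9:21373307-21395703 followed, with KO means of 13.5%, 7.05%, 3.20% and 13.9% and WT means of 96.9%, 89.4%, 85.1% and 91.6%. All 5 held difference peaks of WT replicate 1, against 11.5% of long domains and 5.27% of all H3K36me3 regions. None held one of WT replicate 2, against 0.996% and 8.50%. The 5 were picked by their WT excess in cover, so nothing is read from this.

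The largest KO excess was at chr4:138944222-139034065, an 89.8 kb domain and 1 of the widest. It was covered over 99.4% and 94.95% in KO and had no peak in either WT library, and H3K4me3 lay 459 bp outside its lower end. Neither KO difference list had a peak there. The same held for chr4:32792704-32839038, at 99.5% and 92.9% in KO, and chr19:38000151-38020948, at 90.1% and 100%. At chr8:126430793-126452242 KO stood at 96.5% and 88.3% and WT at 68.5% and 0%, with 9995 bp of KO replicate 1 difference peaks. The first 3 of these were the only domains with no peak in either WT library, and 0 of them were KO-higher in the difference lists. Of the 8 domains with no peak in either KO library, 3 were WT-higher in both replicates. Over all long domains 0.293% were KO-higher and 0.586% WT-higher, and over all H3K36me3 regions 0.688% and 1.22%. These domains were picked by the peaks of the same libraries, so nothing is read from the counts.

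A full absence in a list could occur without a difference call, and among long domains it occurred most often in WT replicate 2. This library had no peak in 70 domains and covered fewer than 50% in only 6 more, while its median was 100%. In 36 of the 70, each of the other 3 libraries covered at least 80%. The counts of such domains were 2 for KO replicate 1, 0 for KO replicate 2 and 5 for WT replicate 1. Among the 10 to 20 kb regions WT replicate 2 had the fewest absences, 65 (2.23%), against 73 to 233 in the other libraries. In 16 of these regions (0.549%) each of the other 3 libraries covered at least 80%, against 0 to 3 such regions for the other libraries. Of the 36 long domains, 0 held a difference peak of KO replicate 2, which had them in 0.644% of all long domains. Of the 5 missing from WT replicate 1, 0 held a difference peak of KO replicate 1, against 5.21% of all long domains. The 2 missing from KO replicate 1 both held a difference peak of WT replicate 1, against 11.5%. With such low shares and counts, no contrast is read from these numbers. The widest of the 36, chr11:29996457-30055423, spanned 59.0 kb at 90.6% and 97.3% in KO, 97.5% in WT replicate 1 and 0% in WT replicate 2. chr13:100813314-100869631 stood at 96.9%, 99.6%, 94.0% and 0%, chr4:56760042-56813479 at 94.7%, 94.4%, 98.6% and 0%, and chr2:113948204-113992520 at 98.7%, 95.6%, 82.2% and 0%. chr19:45006857-45058680 stood at 95.5%, 99.4%, 99.8% and 0%, although the H3K4me3 list of WT replicate 2 held 1513 bp there. The peak numbers in this list ran from 1 to 38104 with 0 missing. Why such stretches were unlisted was not tested, and a missing peak in WT replicate 2 is not taken here as a missing mark. Leaving out the 43 domains of this kind in any library moved the KO minus WT covered share from -13.9 to -15.4 percentage points.

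The widest domains showed the same range of patterns. chr9:110035397-110143302, at 107.9 kb, fell into 33 stretches in KO replicate 1, 24 in KO replicate 2, 10 in WT replicate 1 and 2 in WT replicate 2, with covered shares of 53.2%, 70.9%, 92.3% and 99.4%. An H3K4me3 peak spanned its lower end, another lay 4062 bp outside its upper end, and a separate H3K4me3 region lay inside. chr9:82757122-82854038 was a single peak of 96917 bp in WT replicate 2 and 30, 11 and 13 stretches in the others. By contrast chr15:37893285-37978079 was covered over 92.1%, 99.3%, 97.9% and 99.9%, with H3K4me3 1148 and 1661 bp outside its ends. chr17:74996829-75081363, chr6:120316032-120396923, chr8:98240618-98318898 and chr2:91386175-91463740 were likewise covered over at least 88.9% in every library. chr4:108682978-108760555 was covered over 83.7% and 80.7% in KO and 96.3% and 99.9% in WT. chr9:79484264-79564562 had no peak in KO replicate 1, 69.5% in KO replicate 2, 89.6% in WT replicate 1 and 100% in WT replicate 2, and WT replicate 1 difference peaks covered 71967 bp of it.

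**Figure D5:**
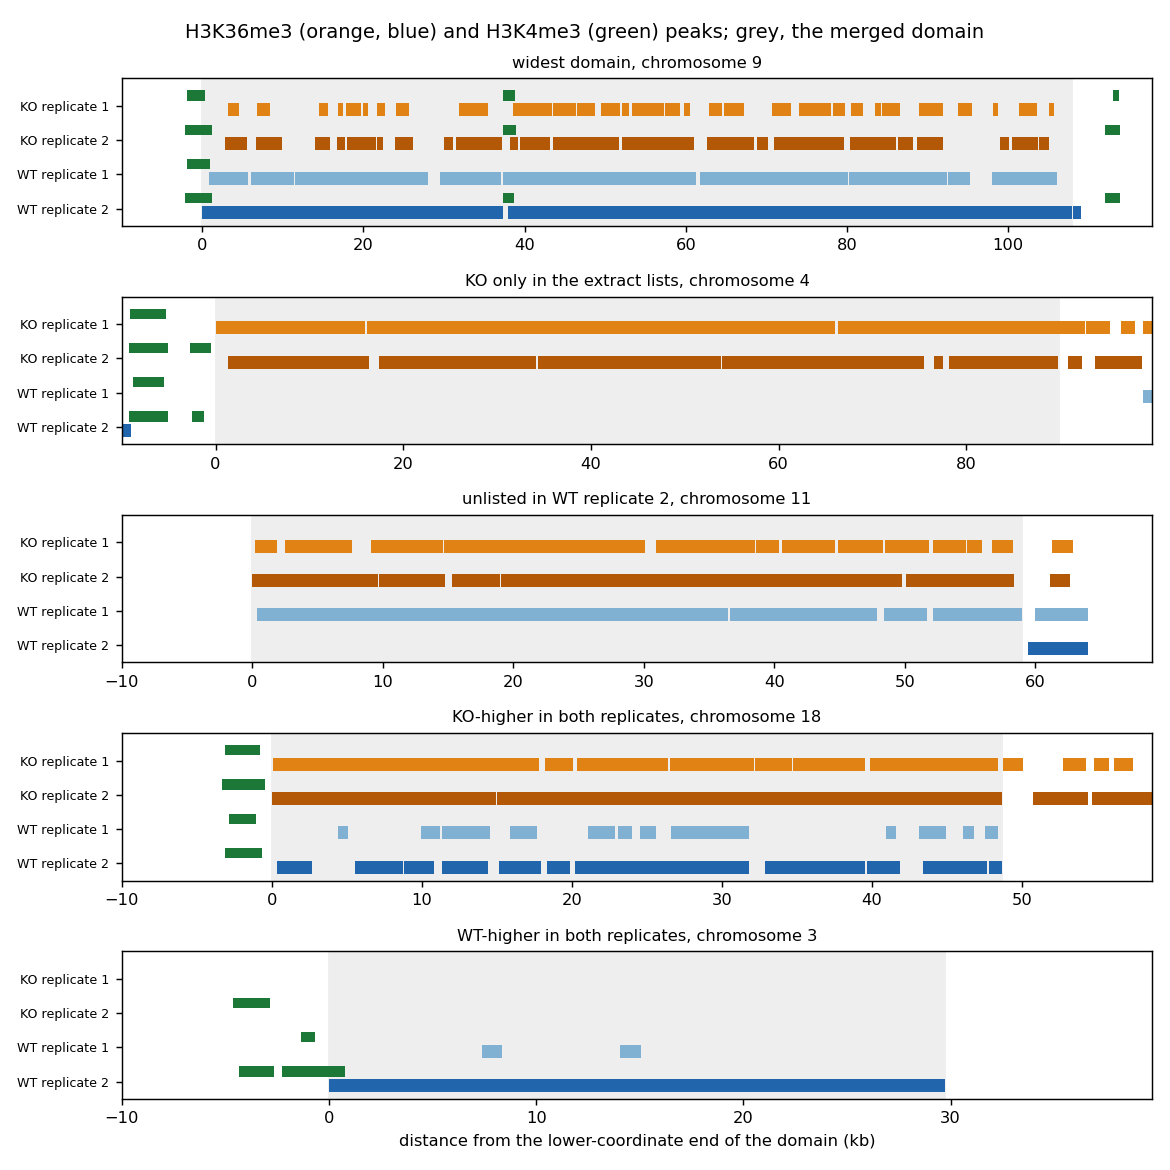
H3K36me3 peaks (orange for KO, blue for WT) and H3K4me3 peaks (green, above each library's row) in 5 long domains, against distance in kb from the lower-coordinate end (x axis), with the merged domain in grey. From top to bottom they are the 107.9 kb domain on chromosome 9, the 89.8 kb domain on chromosome 4 with no WT peak, the 59.0 kb domain on chromosome 11 unlisted in WT replicate 2, the 48.7 kb KO-higher domain on chromosome 18 and the 29.7 kb WT-higher domain on chromosome 3.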

How the data were processed

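Histone ChIP-seq was done in 12 libraries (3 marks, 2 genotypes, 2 replicates). The submitters' processing notes name Bowtie 0.12.7, MACS (version not given in the sources used here) and the mm9 build. For every library the authors deposited 2 peak lists, the first called with whole-cell extract as control and the second a difference list, both giving each peak a score. In the H3K36me3 extract lists the lowest score was 80. Neither the score's formula nor the control of the difference lists is stated in those notes, and the latter was taken to be the other genotype. Scores served only as a filter. The lists hold no read counts, so depth is unknown and a deeper library may list more and wider peaks.

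Peaks were merged, measured and compared in Python 3.11.15 with numpy 2.4.6 and pandas 2.3.3. Merging, cover and distances equalled a base-by-base count in 20 simulated runs. For gaps only the summed lengths were checked, not their positions or their division into internal and terminal. Overlap needed 1 bp. Tests were exact permutations over libraries: genotype labels exchanged for KO against WT, signs flipped for differences within a library. Since the rule used the H3K36me3 lists, their values carry no test. Named regions were the 10 widest domains, the 5 with the largest difference in mean covered share in each direction, the narrowest and the widest excluded region, those with most interior H3K4me3, the 5 widest without H3K4me3 within 20 kb, and up to 5 domains called in both replicates per direction. The domains unlisted in 1 library were chosen after their values were seen. The members and lists were chosen with earlier results of these data known. No sequence is shown, because no mm9 genome was used. Alternatives changed the score minimum, merging distance, window, width, chromosomes and libraries.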

Additional observations from a re-analysis of the deposited data

How the results depend on the processing

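The higher share of long-domain ends with H3K4me3 kept its direction in every alternative run, from 3.92 points with a window of 2 kb to 5.24 with a minimum width of 30 kb. Leaving out 1 library gave 837 to 1664 domains, and there were 1728 with chromosome X included. The KO minus WT covered share ranged from -21.7 to -1.63 points without 1 library, the smallest being without WT replicate 2. Counts of called domains and of called H3K4me3 regions depended on the settings. The share over all regions at each setting is not given, so a change in the members alone cannot be told from a change everywhere. KO-higher domains numbered 3 to 5 and WT-higher domains 0 to 10 without 1 library. They were 0 and 4 with scores of at least 160, 12 and 65 with peaks up to 500 bp apart merged, and 2 and 2 at 30 kb or more. KO-higher H3K4me3 regions at ends numbered 14 with scores of at least 160, 26 and 76 with windows of 2 and 10 kb, and 22 where at least 1 kb of difference peaks was required. WT-higher ones numbered 11 with the 10 kb window. The KO minus WT share of marked ends ranged from -0.308 to 4.32 points without 1 H3K4me3 library. The internal gap minus listed share of H3K4me3 ranged from -0.646 to 0.0699. The KO minus WT share under H3K27me3 turned to 0.000766 points with scores of at least 160 and ranged from -0.00261 to -5.18e-05 without 1 library. The long minus 10 to 20 kb share under H3K27me3, -7.33e-06 points, ranged from -0.000295 to 0.000257. The cause of these changes was not tested. With a replicate block, pairing KO and WT by number, the share of marked ends still differed by 2.01 points and H3K27me3 by -0.00133 points, each with exact sign-flip p = 0.5, the smallest that 2 pairs allow. The labels do not say that the numbers mark shared cultures. Depth is unknown, so intervals for shares were not given.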
